A study of Rattus norvegicus with 3 samples.

Results

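Genomically imprinted genes that act on growth were read in a culture of Schwann cell precursors, which are glia on the way to becoming Schwann cells. The set holds 10 named genes, H19, Meg3, Dlk1, Peg3, Mest, Grb10, Cdkn1c, Ndn, Plagl1 and Gnas, chosen by name. They and the gene lists below were chosen with earlier results of these data known. A share over all genes set beside them is therefore a description and no test. Of the 10 genes, 9 have a row under their own symbol among the 17337 genes of the authors' table. Meg3 has no row under that symbol, but the row RGD1566401 carries its NCBI gene identifier, 500717, and is given here as Meg3, matched by identifier. None of the 10 rows is listed at 2 places in the genome. The cells were untreated, wild-type, primary peripheral glia from rat dorsal root ganglion, kept in a DMEM-based Sato medium, and the 3 libraries form 1 group with no second group to compare. Nothing in the labels tells separate cultures or animals from repeat preparations, so each p-value is set by the spread among 3 libraries that may be technical repeats.

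An imprinted gene is expressed mainly from the copy inherited from the mother or from the father, because DNA methylation set in the germ line marks the parental copies differently. Many imprinted genes act on growth before birth. In mouse, paternally expressed genes such as Igf2 and Dlk1 tend to promote growth, and maternally expressed genes such as Cdkn1c and Grb10 tend to restrain it. The expressed copies named below are those known in mouse, and the parental origin of the reads was not analysed here. Levels are given as TPM, which the authors made from counts per base of gene, brought to the same sum in every library, so that genes can be compared with each other. Errors are SD over 3 libraries unless stated.

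Total counts per library ran from 14139074 to 15309526. Of 8 markers of Schwann cell precursors, 7 had a row, all above 1 TPM, with a summed level of 4447 to 4515 TPM, and Foxd3 had none. The 6 fibroblast markers summed to 8283 to 8483 TPM, the 5 sensory neuron markers to 481 to 502 TPM and the 4 mural cell markers to 490.02 to 518 TPM. Among the neuron markers, Tubb3 was at 185, Prph at 176, Stmn2 at 124, Elavl4 at 3.10 and Isl1 at 2.23 TPM. Among the mural markers, Acta2 was at 317, Pdgfrb at 173, Cspg4 at 7.49 and Rgs5 at 3.26 TPM. The 4 perineurial and meningeal markers summed to 183 to 184 TPM. Of them, Itgbl1 was at 68.3, Foxc1 at 65.3, Slc2a1 at 49.5 and Ptgds at 0.123 ± 0.107 TPM. The 4 macrophage markers summed to 6.57 to 10.6 TPM, with Cd68 at 5.10 and Csf1r at 2.31 TPM above 1 TPM, Ptprc at 0.316 TPM below it and Aif1 at 1.21 TPM in neither direction. The 4 endothelial markers summed to 21.1 to 22.4 TPM, with Cdh5 at 16.6 and Tek at 4.69 TPM above 1 TPM, and Kdr at 0.178 and Pecam1 at 0.0693 TPM below it. The muscle regulators Myod1, Myog and Myf5 had no count. Fibroblasts and mural cells can express several of the imprinted genes as well. The part of these cells, of sensory neurons and of perineurial cells in the levels below was not tested. In such bulk RNA, fewer cells of a type and less RNA per cell cannot be told apart.

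All 9 imprinted growth genes found by symbol were above 1 TPM by limma, against 78.4% of all 13345 genes tested, and the Meg3 row was as well. None was below 1 TPM by limma or by edgeR, also at an unadjusted p under 0.05, against 17.8% of all genes tested by limma. The largest Benjamini-Hochberg adjusted p among the 9 was 7.59e-08 by limma. Each of the 9 also reached 1 TPM in each library, as did 60.6% of all listed genes. Their median was 107 ± 2.59 TPM, where all genes tested had a median of 21.7 ± 0.195 TPM. Because the 9 genes were chosen with earlier results of these data known, neither the shares nor the medians test the set. H19 alone made up 46.3% to 47.1% of the summed TPM of the 9 genes. Their means spanned 134-fold, with H19 at the top and Dlk1 at the bottom.

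**Figure D1:**
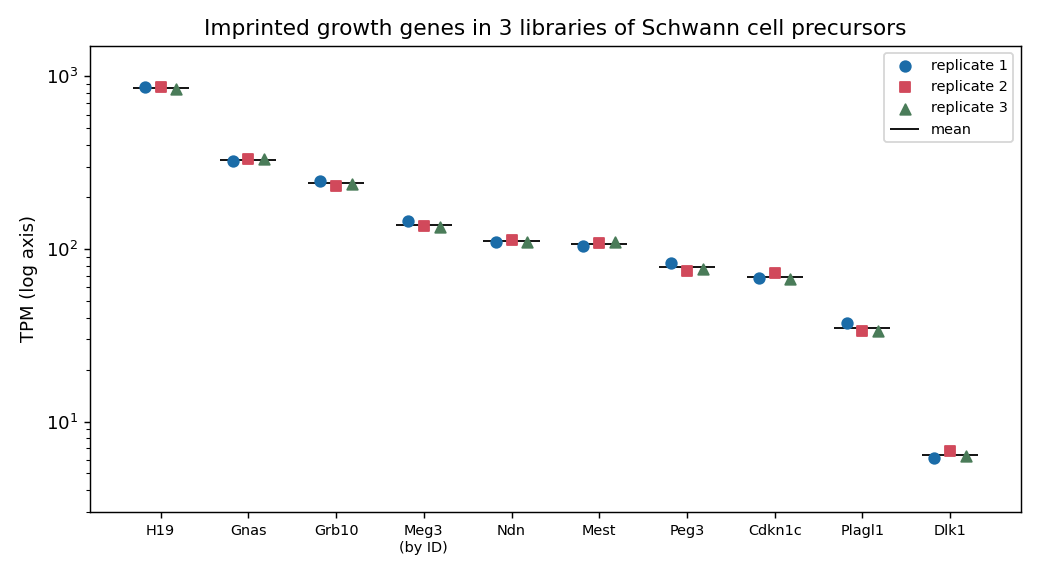
Level of each imprinted growth gene in TPM (log axis) in replicates 1, 2 and 3, with the mean as a line; Meg3 was matched by identifier. H19 stands at 840 to 865 TPM, Dlk1 at 6.16 to 6.71 TPM, and the 3 libraries of each gene lie close together.

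The 2 long noncoding RNAs of the set were both abundant. H19, a maternally expressed RNA that shares its imprinted domain with Igf2, had 14834, 13824 and 13438 counts in replicates 1, 2 and 3. That is 864, 865 and 839.7 TPM, with a mean of 856 ± 14.1 TPM. Replicates 1 and 2 were nearly equal and replicate 3 was slightly lower. H19 ranked 158 of 17337 genes, with an adjusted p of 3.85e-14 by limma against 1 TPM. In rn6 coordinates, H19 (NCBI gene 309122) has 5 exons on chromosome 1, minus strand, between 215744404 and 215747080.

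Meg3, the maternally expressed RNA of the Dlk1 domain, had 2021, 1763 and 1735 counts, or 144.8, 136 and 133 TPM (138 ± 6.01). Replicate 1 was the highest. The Meg3 row ranked 1491, and its log2 distance from 1 TPM was 6.12 ± 0.03 (SE, limma, adjusted p = 4.12e-13). Its 9 exons lie on the plus strand of chromosome 6 from 133658937 to 133691129 in rn6.

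Dlk1, at the other end of the range, lies 75.2 kb from Meg3 on the same strand, from 133576568 to 133583748 in rn6. It encodes a membrane protein related to the Notch ligands that is cleaved to a soluble form and holds progenitors undifferentiated. Dlk1 (NCBI gene 114587) had 70, 71 and 67 counts, or 6.16, 6.71 and 6.33 TPM (6.40 ± 0.283), and ranked 9029. It was above 1 TPM by limma, at a log2 distance of 1.89 ± 0.07 (SE, adjusted p = 7.59e-08). The Meg3 row exceeded Dlk1 by a log2 ratio of 4.53, 4.32 and 4.38 in replicates 1 to 3 (4.41 ± 0.11), which is 21.2-fold. For this pair and for each pair below, the exact two-sided sign-flip permutation test gave p = 0.25, also after adjustment over the 17 pairs measured. That is the smallest p that 3 libraries allow, so no pair can pass a threshold of 0.05.

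The promoters of Meg3 and Dlk1 are shown because these neighbours in a shared imprinted domain differed 21.2-fold in level. Both run from 250 bases before to 50 bases after the start of the gene, from RefSeq in the build GRCr8, plus strand, with each CpG in capitals. Meg3 is at chr6:134273806-134274105 and Dlk1 at chr6:134192347-134192646.
Meg3: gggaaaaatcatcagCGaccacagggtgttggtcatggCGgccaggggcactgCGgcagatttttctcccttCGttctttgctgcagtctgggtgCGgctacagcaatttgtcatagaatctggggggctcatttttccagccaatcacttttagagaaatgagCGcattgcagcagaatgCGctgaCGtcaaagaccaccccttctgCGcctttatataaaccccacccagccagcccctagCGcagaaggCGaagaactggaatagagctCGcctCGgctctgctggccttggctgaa
Dlk1: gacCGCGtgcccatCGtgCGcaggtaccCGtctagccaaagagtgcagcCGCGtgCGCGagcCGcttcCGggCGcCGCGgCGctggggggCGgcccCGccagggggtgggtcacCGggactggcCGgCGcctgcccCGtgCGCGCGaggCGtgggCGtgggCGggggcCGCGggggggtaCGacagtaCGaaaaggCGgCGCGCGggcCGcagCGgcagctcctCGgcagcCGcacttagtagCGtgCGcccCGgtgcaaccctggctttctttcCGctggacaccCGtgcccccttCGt
The Meg3 window holds 13 CpG sites and 54.3% G or C, and the Dlk1 window holds 45 CpG sites and 76.0% G or C. The observed over expected CpG ratio was 0.587 for Meg3 and 1.04 for Dlk1, at percentiles 64.8 and 96.5 of 33469 rat promoters of the same length. The letters TATAAA, searched on both strands, occur 2 times in the Meg3 window, as overlapping matches on opposite strands, and not in that of Dlk1, and 14.2% of all promoters hold them. GGGCGG, searched the same way, occurs 2 times in the Dlk1 window and not in the Meg3 window, with a share of 33.1% of all promoters. CCAAT occurs 1 time in the Meg3 window and not in that of Dlk1, with a share of 37.5%. These letters describe the windows, and no binding or methylation was measured.

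Promoter windows were found for 8 of the 10 genes, 10 windows in all, since Gnas has 3. All 10 held more CpG sites than the median promoter, which has 7, with 12 to 45 sites each. Grb10, with 44, and the third Gnas window, with 41, stood beside Dlk1 at the top. Gnas and Grb10 are among the highest members in level and Dlk1 is the lowest, and a link of CpG sites to level was not tested. The remaining windows were Plagl1 with 29 sites, Mest with 18, Peg3 with 16 and Ndn with 14, and the other Gnas windows had 18 and 12.

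Small RNA genes lie inside both noncoding RNAs. Mir675 lies in exon 1 of H19, and Mir770 in an intron of Meg3. Their mature sequences are shown, from RefSeq, because they are part of the RNAs measured here or of their precursors, with the seed (bases 2 to 8) in capitals.
rno-miR-675-5p: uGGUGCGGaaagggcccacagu
rno-miR-675-3p: uGUAUGCCcuaaccgcucagu
rno-miR-770-5p: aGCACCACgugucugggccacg
rno-miR-770-3p: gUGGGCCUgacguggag
The 4 seeds differ from each other. The Mir675 row, 84 bases long, had no count in any library. The H19 exon around it belongs to a gene with 13438 counts or more in each library. How reads that fall in 2 overlapping rows were assigned is not given in the sources used here. The lack of counts in the Mir675 row therefore sets no limit on RNA from the hairpin. The Mir770 row, 76 bases long, had 19, 15 and 14 counts, or 33.8, 28.7 and 26.8 TPM. It was above 1 TPM by limma (adjusted p = 5.00e-10), with replicate 1 the highest, as for Meg3. Such a row counts fragments of poly(A)-selected RNA that overlap the hairpin, and mature miRNAs are too short for this kind of library. Of 56 miRNA rows within 250 kb of Dlk1 or Meg3, 47 had no count, 7 had 1 to 5 counts over the 3 libraries, and Mir3072 had 14. Mir770 held 48 of the 78 counts in these rows.

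The maternally expressed H19 was also set beside Igf2, the paternally expressed insulin-like growth factor 81.0 kb away on the same strand. Igf2 was at 177, 165 and 170.5 TPM (171 ± 5.98). H19 exceeded Igf2 by a log2 ratio of 2.32 ± 0.05, or 5.0-fold, in 3 of 3 libraries, and by 1.32 when counts were not divided by gene length. It exceeded the Meg3 row by 2.63 ± 0.05, or 6.20-fold.

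The next group carries growth signals inside the cell. Grb10, an adaptor that binds activated insulin and IGF receptors and dampens their signal, had 9125, 8004 and 8196 counts. That is 247, 233 and 238 TPM (239 ± 7.19, rank 769, limma adjusted p = 9.84e-14), with replicate 1 the highest. Grb10 (NCBI gene 498416) has 18 exons on chromosome 14, minus strand, between 92021851 and 92117923 in rn6. The receptors it binds were far lower. Grb10 exceeded Igf1r by a log2 ratio of 3.80 ± 0.08 and Insr by 4.06 ± 0.06, and Igf1r and Insr stood at 17.1 ± 0.466 and 14.2 ± 0.642 TPM. It also exceeded its relative Grb14, at 6.10 ± 1.05 TPM, by 5.28 ± 0.27, and the other relative, Grb7, at 0.95 ± 0.321 TPM, did not pass against 1 TPM in either direction (limma adjusted p = 0.645).

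Of the 14 insulin and IGF signalling genes with a row, 13 were above 1 TPM and none below, against 78.4% and 17.8% of all genes tested. Their median was 26.4 ± 0.870 TPM. The other gene was Grb7. The highest was the ubiquitin ligase gene Nedd4, whose product binds Grb10 in mouse, at 1030.1 ± 18.6 TPM. The mRNA-binding protein gene Igf2bp2 was at 96.4 ± 1.61 TPM, and Igf2r, the receptor that removes IGF2, at 69.3 ± 2.94. Igf1 was at 40.02 ± 1.65 TPM.

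Gnas, which encodes the stimulatory G protein subunit that switches on cyclic AMP synthesis, had 12527, 11948 and 11970 counts, or 323, 331 and 332 TPM (329 ± 4.71, rank 517). Replicate 1 was the lowest and the other two were nearly equal (limma adjusted p = 4.49e-14 against 1 TPM). Gnas (NCBI gene 24896) lies on the plus strand of chromosome 3 from 172374957 to 172434986 in rn6. The row lists 5 transcripts in the authors' table, and in mouse the locus makes maternal, paternal and biallelic transcripts, so this level is a sum that these counts cannot divide. Gnal, the related subunit of olfactory neurons, was at 6.73 ± 0.713 TPM, and Gnas exceeded it 48.4-fold, in 3 of 3 libraries.

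Of 18 Gs partner genes with a row, 17 were above 1 TPM and 1 below, against 78.4% and 17.8% of all genes tested. Their median was 45.0 ± 1.69 TPM. The kinase A regulator Prkar1a was at 703 ± 11.3 TPM, and the G protein subunits Gnb2 and Gnb1 were at 579 ± 3.85 and 553 ± 13.3 TPM. Gng12 and Gng5 were at 182 and 169 TPM. Among adenylyl cyclases, Adcy6 was the highest at 97.1 ± 1.90 TPM and Adcy8 the lowest at 0.236 ± 0.0254, below 1 TPM (limma adjusted p = 1.60e-05).

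Cdkn1c encodes p57, an inhibitor of cyclin-dependent kinases that takes cells out of the cycle, and it is maternally expressed. It had 1032, 1022 and 945 counts, or 67.97, 72.3 and 66.8 TPM (69.03 ± 2.90, rank 3036, limma adjusted p = 1.57e-12), with replicate 2 the highest. Cdkn1c (NCBI gene 246060) has 3 exons on chromosome 1, minus strand, between 216661067 and 216663721 in rn6. Its relative Cdkn1b, encoding p27, was higher, at 211 ± 6.33 TPM, with a log2 ratio of Cdkn1c to Cdkn1b of -1.61 ± 0.02. Cdkn1a, encoding p21, was at 79.5 ± 5.14 TPM. The libraries of Cdkn1c, at 66.8 to 72.3 TPM, lay just below those of Cdkn1a, at 73.6 to 82.6 TPM, with a log2 ratio of -0.20 ± 0.15. The difference was small in replicate 2, at -0.02. Phlda2, a neighbour 38.8 kb away that restrains placental growth in mouse, was at 2.47 ± 0.353 TPM, and Cdkn1c exceeded it by 4.76 ± 0.22.

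All 14 cell cycle partners were above 1 TPM, as were 78.4% of all genes tested, and their median was 57.05 ± 2.39 TPM. The highest were Cdk4 at 533 ± 8.996, Ccnd1 at 498 ± 2.60 and Ccnd3 at 386 ± 12.8 TPM, the kinase and cyclins of G1. Cdk2, a main target of p57, was at 34.4 ± 1.25 TPM.

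Counts not divided by gene length gave other log2 ratios with the same sign in several further pairs. They were 6.34 for Cdkn1c to Phlda2, 6.66 for Grb10 to Grb14, 6.41 for Gnas to Gnal, 10.4 for Peg3 to Usp29, 2.01 for Peg3 to Plagl1 and -2.43 for Ndn to Maged1.

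**Figure D2:**
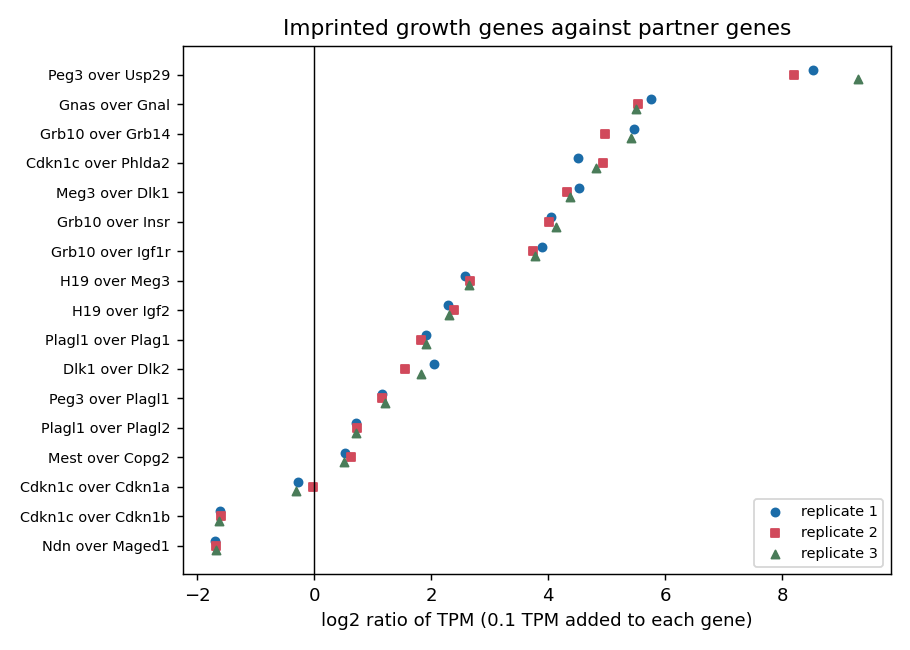
Log2 ratio of TPM of each imprinted growth gene to a partner or neighbour gene (0.1 TPM added to each) in replicates 1, 2 and 3, ordered by mean. In 14 of 17 pairs the gene named first was higher in 3 of 3 libraries, and the other 3, Cdkn1c to Cdkn1a, Cdkn1c to Cdkn1b and Ndn to Maged1, lie left of 0.

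Among the paternally expressed nuclear regulators, Ndn was the highest. It encodes necdin, a MAGE family protein that restrains the cell cycle and promotes differentiation of neurons. Ndn had 1291, 1238 and 1207 counts, or 109.2, 113 and 109.6 TPM (110.4 ± 1.81, rank 1898, limma adjusted p = 1.87e-13), with replicate 2 the highest. Ndn (NCBI gene 308690) is a gene of 1 exon on the plus strand of chromosome 1 from 122981755 to 122983354 in rn6. Its relatives Maged1 and Maged2 were higher, at 356 ± 6.51 and 180.2 ± 3.91 TPM, and the log2 ratio of Ndn to Maged1 was -1.69 ± 0.01.

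Peg3 encodes a large zinc finger protein linked in mouse to growth and cell survival. It had 5288, 4477 and 4600 counts, or 82.4, 74.97 and 76.96 TPM (78.1 ± 3.86, rank 2693, limma adjusted p = 1.66e-12), and replicate 1 stood above the other two. Peg3 (NCBI gene 103691034) lies on the plus strand of chromosome 1 from 70210849 to 70237450 in rn6, with 9 exons. Within 250 kb of Peg3, the highest row was the kinase gene Aurkc at 13.6 ± 1.09 TPM. Usp29, 169 kb away and paternally expressed in mouse, had 6, 7 and 1 counts (0.1 ± 0.0694 TPM), and Zim1, 7.43 kb away and maternally expressed, was at 1.69 ± 0.049 TPM. The log2 ratio of Peg3 to Usp29 was 8.68 ± 0.57, but 6.17 with 1 TPM added in place of 0.1 and 9.78 with 0.01. Apeg3, an antisense row of 932 bases within exon 9 of Peg3, had no count. Reads in that overlap carry the same doubt as those of Mir675, so no limit is set for Apeg3.

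Plagl1 encodes a zinc finger protein that halts the cell cycle and, in mouse, regulates other imprinted genes. It had 1329, 1115 and 1115 counts, or 37.1, 33.4 and 33.4 TPM (34.6 ± 2.12, rank 5218, limma adjusted p = 3.00e-11). Replicate 1 was the highest and the other two were equal within 0.1 TPM. Plagl1 (NCBI gene 25157) lies on the plus strand of chromosome 1 from 7219587 to 7259536 in rn6, with 8 exons. It exceeded both relatives, Plag1 at 9.35 ± 0.515 TPM by a log2 ratio of 1.88 ± 0.05 and Plagl2 at 21.0 ± 1.36 TPM by 0.72 ± 0.01. Peg3 exceeded Plagl1 by 1.17 ± 0.03.

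All 12 relatives and partners of these zinc finger and MAGE proteins were above 1 TPM, as were 78.4% of all genes tested, and their median was 45.6 ± 0.555 TPM. The cell death gene Bax was at 219 ± 4.54 TPM, between Maged1 and Maged2. Of the 10 measured Notch partners of Dlk1, 8 were above and 2 below 1 TPM, which is 80.0% above, close to the 78.4% of all genes tested. Their median was 5.04 ± 0.216 TPM. Adam17, a protease that cleaves Dlk1 in mouse, was at 249 ± 5.53 and Notch1 at 125 ± 2.93 TPM, and the Delta ligand genes Dll1 and Dll3 were at 0.336 ± 0.0799 and 0.049 ± 0.0849 TPM. Dlk2, the relative of Dlk1, was at 1.78 ± 0.41 TPM, and Dlk1 exceeded it by a log2 ratio of 1.81 ± 0.25, or 1.42 with 1 TPM added.

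Mest encodes a membrane-bound protein with the fold of a hydrolase that promotes growth in mouse and is paternally expressed. It had 1036, 997 and 1012 counts, or 104.6, 108 and 109.6 TPM (107.4 ± 2.60, rank 1950, limma adjusted p = 2.65e-13), with replicate 1 the lowest. Mest (NCBI gene 58827) lies on the plus strand of chromosome 4 from 58052786 to 58063231 in rn6. Copg2, which faces it on the minus strand with 1.16 kb between them, was at 73.2 ± 3.41 TPM. Mest exceeded Copg2 by a log2 ratio of 0.55 ± 0.06 per length, and the sign turned when counts were not divided by gene length, to -0.68.

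In order of level, the genes ran from H19 through Gnas, Grb10, Meg3, Ndn, Mest, Peg3, Cdkn1c and Plagl1 to Dlk1. Of the 9 neighbouring steps in that order, 8 had ranges over libraries that did not overlap. The exception was Ndn and Mest, where Ndn was higher in 2 of 3 libraries and the means differed 1.03-fold. Peg3 and Cdkn1c came next, with 74.97 TPM as the lowest library of Peg3 and 72.3 TPM as the highest of Cdkn1c. The genes next to the 3 highest in mean level were Ptn above H19 at 856 TPM and Dcn, one of the fibroblast markers, below it at 842 TPM, Arl8a and Aatk around Gnas at 329.4 and 328.4 TPM, and Plcd1 and Suclg1 around Grb10 at 239.7 and 239.2 TPM. Those 6 were chosen by mean TPM over 3 libraries alone, at a difference of at most 0.0238 in mean log2(TPM + 1).

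**Figure D3:**
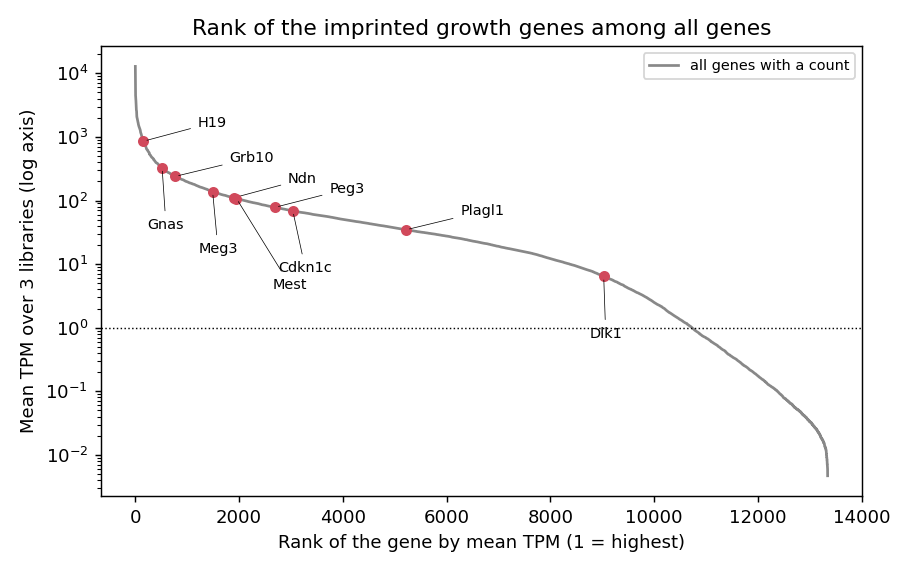
Mean TPM over 3 libraries (log axis) of all genes with a count, ordered from the highest, with the imprinted growth genes as points and a dotted line at 1 TPM. H19 sits at rank 158, Plagl1 at rank 5218 and Dlk1 at rank 9029.

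The libraries differed little in these genes. The highest library was under 1.2 times the lowest for all 9 genes found by symbol, as it was for 88.4% of the 9322 genes with a mean of 5 TPM or more. The coefficient of variation (CV) ran from 1.43% for Gnas to 6.12% for Plagl1. Counting error alone would give Dlk1, with 208 counts in all, a CV of 12.0%, and its observed CV was 4.43%. Ndn, Mest and Dlk1 varied less than counting error alone gives, and the share of all genes that do so was not computed. An SD from 3 libraries is itself uncertain, so no unusual steadiness of these genes is read from it. Peg3, Grb10 and Plagl1 had an SD of 3.42, 2.76 and 2.11 times the counting SD, where the median over the 9322 genes was 1.10. The shares of those genes with a larger excess were 1.54%, 3.73% and 10.7% in the same order. The counting SD shrinks relative to the level as counts rise, and those genes were not matched on counts. By the ratio of highest to lowest library, 1.0994 for Peg3, 39.4% of the same genes exceeded Peg3. Replicate 1 was the highest library for Peg3, Grb10, Plagl1 and Meg3, replicate 2 for 4 of the 10 genes and replicate 3 for 2.

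**Figure D4:**
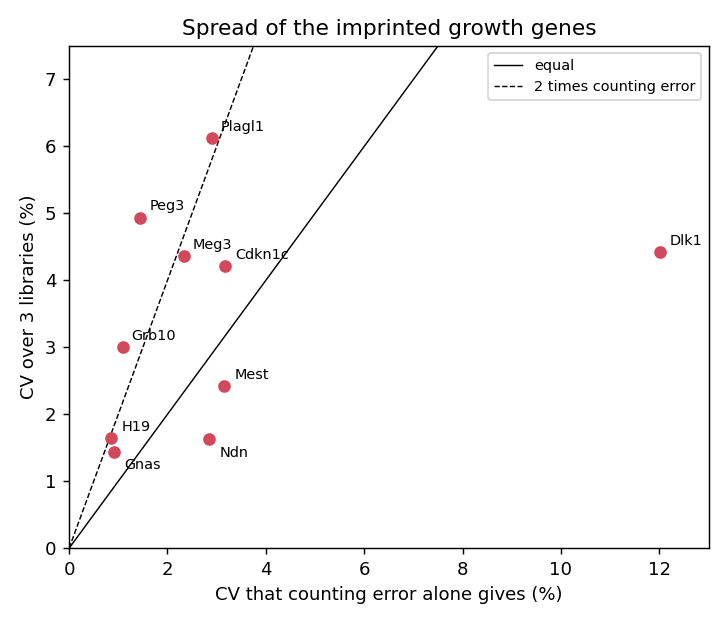
CV over 3 libraries (%) of each imprinted growth gene against the CV that counting error alone gives (%), with lines at equality and at 2 times counting error. Peg3, Grb10 and Plagl1 lie above the upper line, and Ndn, Mest and Dlk1 below equality.

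Other imprinted genes were read from lists by the copy expressed in mouse, 53 genes in all, of which 40 had a row. By limma, 26 of the 40 were above 1 TPM, 9 below, 2 passed in neither direction and 3 had no count. The share above was 70.3% of those with a count, where it was 78.4% of all genes tested. Below 1 TPM were 17.8% of all genes tested. The median of the 40, with the 3 that had no count included, was 4.71 ± 0.367 TPM. Of the 16 paternally expressed genes with a row, 12 were above and 4 below 1 TPM. Igf2 was followed by Sgce, a membrane glycoprotein gene, at 149 ± 4.03 TPM, and Nnat, encoding neuronatin, at 117.8 ± 2.11 TPM. Impact was at 64.8 ± 2.55, Inpp5f at 44.6 ± 1.21 and Zrsr1 at 36.5 ± 4.45 TPM. Dio3, the thyroid hormone deiodinase gene of the Dlk1 and Meg3 domain, was at 9.59 ± 0.39 TPM.

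Of the 24 maternally expressed genes with a row, 14 were above 1 TPM, 5 below, 2 in neither direction and 3 without a count. Of all genes tested, which all had a count, 78.4% were above and 17.8% below. The highest was Cd81, a tetraspanin gene, at 1091 ± 15.7 TPM, followed by Commd1 at 89.5 ± 3.80, Copg2, Igf2r, Osbpl5 at 44.2 ± 2.67 and Ube3a at 23.3 ± 1.01 TPM. Several are imprinted only in placenta or brain in mouse, so a level here says nothing of imprinting in these cells. The genes below 1 TPM were Snrpn, Snurf, Usp29 and Rasgrf1 on the paternal list and Kcnq1, Ascl2, Asb4, Calcr and Ddc on the maternal list. Snrpn at 0.129 ± 0.112 TPM and Snurf at 0.738 ± 0.213 TPM overlap on the same strand, so reads shared by both may have been lost to each. The call of Snurf (limma adjusted p = 0.0495) was lost without replicate 1 (0.156) and without replicate 2 (0.327), and its adjusted p ran from 0.0277 to 0.327 over the alternatives at 1 TPM. The call of Ascl2 (0.0183) was also lost without replicate 1 (0.0743) or 2 (0.107), with a range of 0.00702 to 0.145. That of Rasgrf1 (0.0429) was lost without any one of the replicates (0.0675 to 0.0892), with a range of 0.02 to 0.106. Dlx5, at 1.06 ± 0.351 TPM, and Slc22a2, at 0.729 ± 0.24 TPM, passed in neither direction, and Slc22a2 (0.0507, range 0.0212 to 0.331) was below 1 TPM without replicate 2 and under TMM rescaling. Klf14, Kcnk9 and Slc22a3 had no count.

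**Figure D5:**
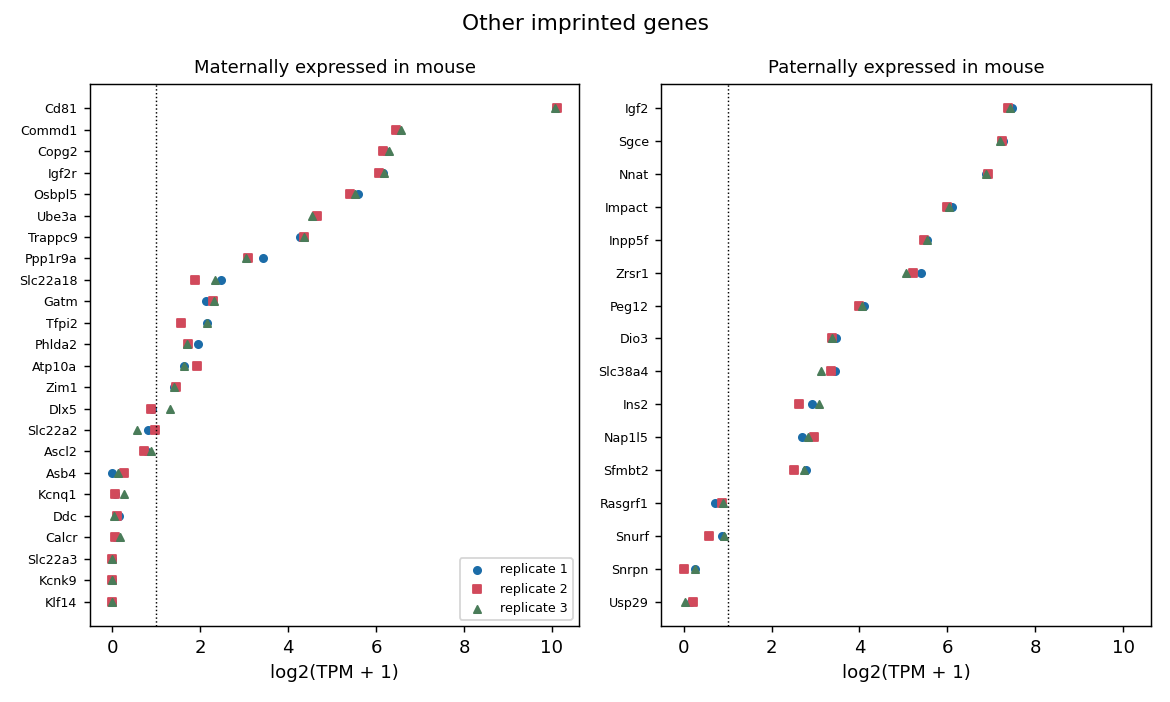
Log2(TPM + 1) of the other imprinted genes with a row in replicates 1, 2 and 3, by the copy expressed in mouse, with a dotted line at 1 TPM. Cd81 is the highest of the maternal list and Igf2 of the paternal list, and 3 genes of the maternal list lie at 0.

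A further list held genes that set, read or keep imprints. Of 17 such genes with a row, 14 were above 1 TPM, 1 was below and 2 had no count, where 78.4% of all genes tested were above 1 TPM. Their median, with the 2 that had no count included, was 31.99 ± 1.64 TPM. Trim28, the corepressor bound by imprint-reading zinc finger proteins, was at 276 ± 5.22 TPM, and the zinc finger genes Zfp57 and Zfp445 were at 32.6 ± 2.49 and 33.6 ± 0.374 TPM. Ctcf, whose product insulates Igf2 from H19 enhancers on the maternal copy, was at 68.3 ± 1.82 TPM. Ezh2, Dnmt1 and Setdb1, which methylate histones or DNA, were at 48.8 ± 3.55, 46.9 ± 0.415 and 45.4 ± 1.56 TPM. Arid4b was at 0.591 ± 0.18 TPM, below 1 TPM (limma adjusted p = 0.00577), and the germ cell genes Dnmt3l and Dppa3 had no count, where Dppa3 is listed at 2 places in the genome.

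Rows near the imprinted growth genes differed from locus to locus. Of the 10 genes, 5 lie on chromosome 1, H19, Cdkn1c, Ndn, Peg3 and Plagl1. Around H19, within 250 kb, 6 of 8 rows other than miRNAs were above 1 TPM, against 78.4% of all genes tested, and the highest was the protease gene Ctsd at 1162 ± 10.7 TPM, above H19 itself. Around Gnas all 6 such rows were above 1 TPM, and around Cdkn1c 6 of 7, led by Nap1l4 at 182 ± 3.41 TPM. Around Grb10 the 4 rows were at most 2.90 TPM, with Ddc, 25.1 kb away, at 0.072 ± 0.0394 TPM. Around Peg3, 6 of 9 rows had no count, of which 5 are olfactory receptor genes, where 3992 of all 17337 listed genes had no count. These neighbours were named after their values were seen.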

How the data were processed

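RNA of 3 libraries of 1 group was measured with a stranded, poly(A)-selecting kit, per the labels' protocols. The submitters' processing notes list STAR 2.5.2b, Subread and rn6. The sources used here do not give the annotation, the strand option or the rule for multiply mapped reads. The authors deposited raw counts per gene, gene lengths, a signal of counts over length (used only to identify columns) and TPM. TPM recomputed from the deposited counts differed by at most 0.0005 TPM, and 6 further columns, of sums, stayed unused. Also left out were 2 rows that name no gene and hold no counts.

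Genes with a count in at least 1 library were tested against 1 TPM on the log2(TPM + 1) scale by limma 3.58.1 under R 4.3.3, with trend, two-sided, with Benjamini-Hochberg adjustment over all of them at 0.05. The pseudocount makes differences of low genes look smaller. edgeR 4.0.16 quasi-likelihood F statistics on the counts, with gene length and library scale as offset, were an alternative. Both were run on simulated counts in which some genes were set to known levels above or below 1 TPM. None was set at 1 TPM, so no rate of false calls at the threshold was obtained. Pairs are log2 ratios of TPM with 0.1 TPM added. A floor of 3 counts and the counting SD cover counting error only. At the median gene length 3 counts are 0.216 to 0.232 TPM. Of 191 symbols, 167 matched by symbol, 2 by NCBI gene identifier through a table of GRCr8 names, and 22 had no row. A gene was called listed at 2 places for exons on 2 chromosomes or strands, a span over 2500000 bases, or a repeated series of exon lengths. Named genes are the members, up to 6 of the highest and up to 6 of those under 1 TPM in each list, the pairs and the genes next in level. Grb7, Cdk2, Dio3, Dlx5, Slc22a2, Zfp57, Zfp445 and the neighbours in the genome were chosen after their values were seen. The members and gene lists were chosen with earlier results of these data known. Promoters and miRNAs come from RefSeq tables in GRCr8 and were matched by symbol. No coordinate was converted between builds. The values of 2 listed genes are not reported here.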

Additional observations from a re-analysis of the deposited data

How the results depend on the processing

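The count of 9 imprinted growth genes above 1 TPM and of 0 below was the same with a pseudocount of 0.1 TPM, all listed genes tested, a mean of 0.1 TPM required, no trend, edgeR on the counts, TMM rescaling, genes listed at 2 places left out, each replicate left out, and a threshold of 5 TPM. With the Meg3 row, added after its value was seen, the count above was 10. Of the other imprinted genes, 26 were above 1 TPM under each of these, except 19 at a threshold of 5 TPM. The share of all genes at a threshold of 5 TPM is not given here. The number below was 9, but 3 with a mean of 0.1 TPM required, which removes genes, 17 at 5 TPM, 7 by edgeR and 6 to 8 with a replicate left out. It was 6 with a pseudocount of 0.1 TPM, 8 with no trend and 8 with genes listed at 2 places left out. It rose to 10 under TMM rescaling and to 11 with all listed genes tested, which adds genes with no count. The gene named first was higher in 14 of 17 pairs, or 13 by raw counts, where Mest to Copg2 turned to -0.6784. Of 102 single pair values under alternatives, 78 moved by at most 1 SD, 23 by more, and 1 reversed. Genes with few counts, such as Usp29 and the miRNA rows, are limited by depth. No paired analysis was possible because there is 1 group.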
